A study of Mus musculus with 12 samples.

Results

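The phase II odorant-metabolizing enzymes were taken here as the glutathione S-transferases (GSTs), UDP-glucuronosyltransferases (UGTs), sulfotransferases (SULTs), aldehyde dehydrogenases (ALDHs), carbonyl reductases (CBRs), aldehyde oxidases (AOXs) and the quinone reductase Nqo1. Members were taken by gene symbol. They therefore include enzymes that oxidise or reduce and do not conjugate, and some of lysine, valine, folate or myelin lipid metabolism. A probe set had to carry exactly 1 symbol of these families, and where a gene had several, that of the highest mean over all arrays stood for it. This gave 75 genes, of 19938 genes with a probe set of their own. The 75 are 21 ALDHs, 18 GSTs, 16 SULTs, 11 UGTs, 4 CBRs, 4 AOXs and Nqo1. Of these, 68 had a mean log2 level above 5 and were tested. The other 7, Sult2a6, Sult2a8, Sult3a1, Sult3a2, Ugt2b1, Ugt2b37 and Ugt3a1, had mean log2 levels of 4.07 to 4.98.

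The samples were the open or the closed side of the main olfactory epithelium (MOE) of wild-type (WT) and H2be-KO mice, all with the right nostril closed by unilateral naris occlusion (UNO) from 2 weeks of age for 3 weeks. The open side keeps its airflow, and the closed side is compared with it. The closed side was always the right one and its nostril was cauterised. Body side and surgery therefore cannot be told apart from the loss of airflow. Both genotypes carried the occlusion, and unoperated mice were not analysed here, so which side changed cannot be told. Below, rose and fell mean higher and lower on the closed than on the open side. The KO allele puts a membrane-bound mCherry reporter in place of the H2be coding sequence, and its founders were crossed to C57Bl/6. The 4 groups, WT open, WT closed, KO open and KO closed, hold 3 arrays each, 12 in all. A sample pools 2 mice, a female and a male, by the series description, while the legends of the study give more mice per sample. The titles give an age of 5 weeks and the age tag reads 6 months. The p-values below measure the spread between these pooled samples.

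Conjugating enzymes make lipophilic compounds soluble. GSTs attach glutathione to electrophiles, UGTs attach glucuronic acid and SULTs attach sulfate, while ALDHs, AOXs, CBRs and Nqo1 oxidise or reduce carbonyl and quinone groups. The MOE is rich in such enzymes, above all in sustentacular cells and Bowman glands, where they are thought to clear inhaled toxicants and odorants. Odorants with aldehyde, phenol and alcohol groups are among their substrates, and airflow brings these to the open side. The comparison of the sides therefore asks how enzyme mRNA differs between epithelium with and without that airflow.

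The deposited values are log2 levels of 1 probe set each. Array medians lay between 7.21 and 7.30, and the correlation within a group was 0.972 to 0.985 over all probe sets. Markers of olfactory tissue were high. The mean log2 level was 12.6 for Omp, the mature olfactory sensory neuron (OSN) marker, and 12.4 for Cyp2g1, an olfactory P450 of supporting and gland cells. Of 3 secretory markers of respiratory epithelium, Scgb1a1 had a mean of 4.78, under the filter, Reg3g one of 12.2, and Muc5ac ran from 4.54 to 9.61 over the arrays. H2be itself was at 11.55 to 11.62 in the WT and 11.31 to 11.33 in the KO on the open side. This difference of -0.26 (95% interval -0.42 to -0.11) was not called (limma, adjusted p = 0.641). On the closed side the difference was -0.27 (95% interval -0.43 to -0.12), also without overlap and without a call (limma, adjusted p = 0.999). Where its probes lie in the gene is not given in the sources used here. The level of a probe set depends on its probes, so levels are compared between arrays and not between genes. In a whole piece of tissue, fewer cells of a type and less RNA per cell cannot be told apart.

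Most members sit in gene clusters. By RefSeq, 48 of the 75 lie in 13 clusters, in which neighbours are at most 500 kb apart. The largest holds 11 genes on chromosome 5, 8 UGTs followed by Sult1b1, Sult1d1 and Sult1e1. A cluster on chromosome 3 holds 7 mu-class GSTs and 1 on chromosome 1 holds the 4 AOXs. Neighbours in such clusters are often near-identical copies, and probes of 1 copy can bind transcripts of another, so values of single UGT2B, GSTM, GSTP, ALDH3B and SULT2A genes are uncertain.

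The antioxidant response element, bound by the Nrf2 factor, was searched because it is the best-known switch of phase II genes. The letters TGACNNNGC were looked for on both strands of RefSeq promoter windows, from 250 bases before to 50 after each start. They stood in 5 of the 65 members with a window (7.7%), against 14.0% of all 27025 genes with one. The matches before the start follow with the motif in capitals, from RefSeq (GRCm38.p6). Sult1d1, the member called on the closed side, had no match, and the 250 bases before its start are printed in full. A match is no proof of a working site. Bases further than 250 before a start were not searched, so a missing match is no proof that a gene lacks the element.
Aldh1a2 (chr9:71215661-71215701, plus strand): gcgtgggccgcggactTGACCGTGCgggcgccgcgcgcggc
Aldh9a1 (chr1:167349888-167349928, plus strand): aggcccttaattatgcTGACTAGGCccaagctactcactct
Gsta3 (chr1:21240448-21240488, plus strand): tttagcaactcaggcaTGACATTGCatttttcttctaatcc
Gstm5 (chr3:107895796-107895836, plus strand): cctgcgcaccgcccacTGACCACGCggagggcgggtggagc
Gstm7 (chr3:107931719-107931759, minus strand): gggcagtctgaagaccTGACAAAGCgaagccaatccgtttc
Sult1d1 (chr5:87569007-87569256, minus strand): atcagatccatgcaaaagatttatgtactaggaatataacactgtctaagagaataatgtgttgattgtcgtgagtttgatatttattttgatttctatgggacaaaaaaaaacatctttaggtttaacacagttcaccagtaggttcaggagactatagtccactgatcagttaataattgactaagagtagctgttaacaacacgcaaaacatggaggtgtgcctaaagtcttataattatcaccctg

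Between the sides, 1 member differed by the test. Averaged over both genotypes, Sult1d1 was higher on the closed side and no other member passed the test, so 1 of 68 members was called higher and 0 were called lower (limma, adjusted p under 0.05 over all 32615 probe sets tested). Over all probe sets tested, 2.90% were called in the same comparison. At an unadjusted p under 0.05 there were 10 members, 5 higher and 5 lower, where the share over all probe sets was 13.2%. In the WT alone 0 of 68 members were called and 8 had an unadjusted p under 0.05, beside 0.855% and 9.34% of all probe sets. In the KO alone 0 were called and 2 had an unadjusted p under 0.05, beside 1.05% and 10.5%. Separation of 3 arrays from 3 was common. In the WT 8 members lay higher and 4 lower on the closed side without overlap, beside 2020 and 2298 of the 32615 probe sets. In the KO these were 7 and 6 members, beside 3468 and 2188 probe sets. The median log2 difference of the members was 0.02 for the average of both genotypes, against 0.00 over all probe sets tested. The difference was under 0.25 in size for 62 of the 68. The 95% interval of the difference lay within 0.5 of zero for 62 members as well. The 6 with a wider reach were Sult1d1, Sult6b2, Ugt2b35, Ugt2b38, Cbr3 and Gsto1. The median standard error over all probe sets was 0.0945 for this average, with a 95% half-width of 0.207.

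**Figure D1:**
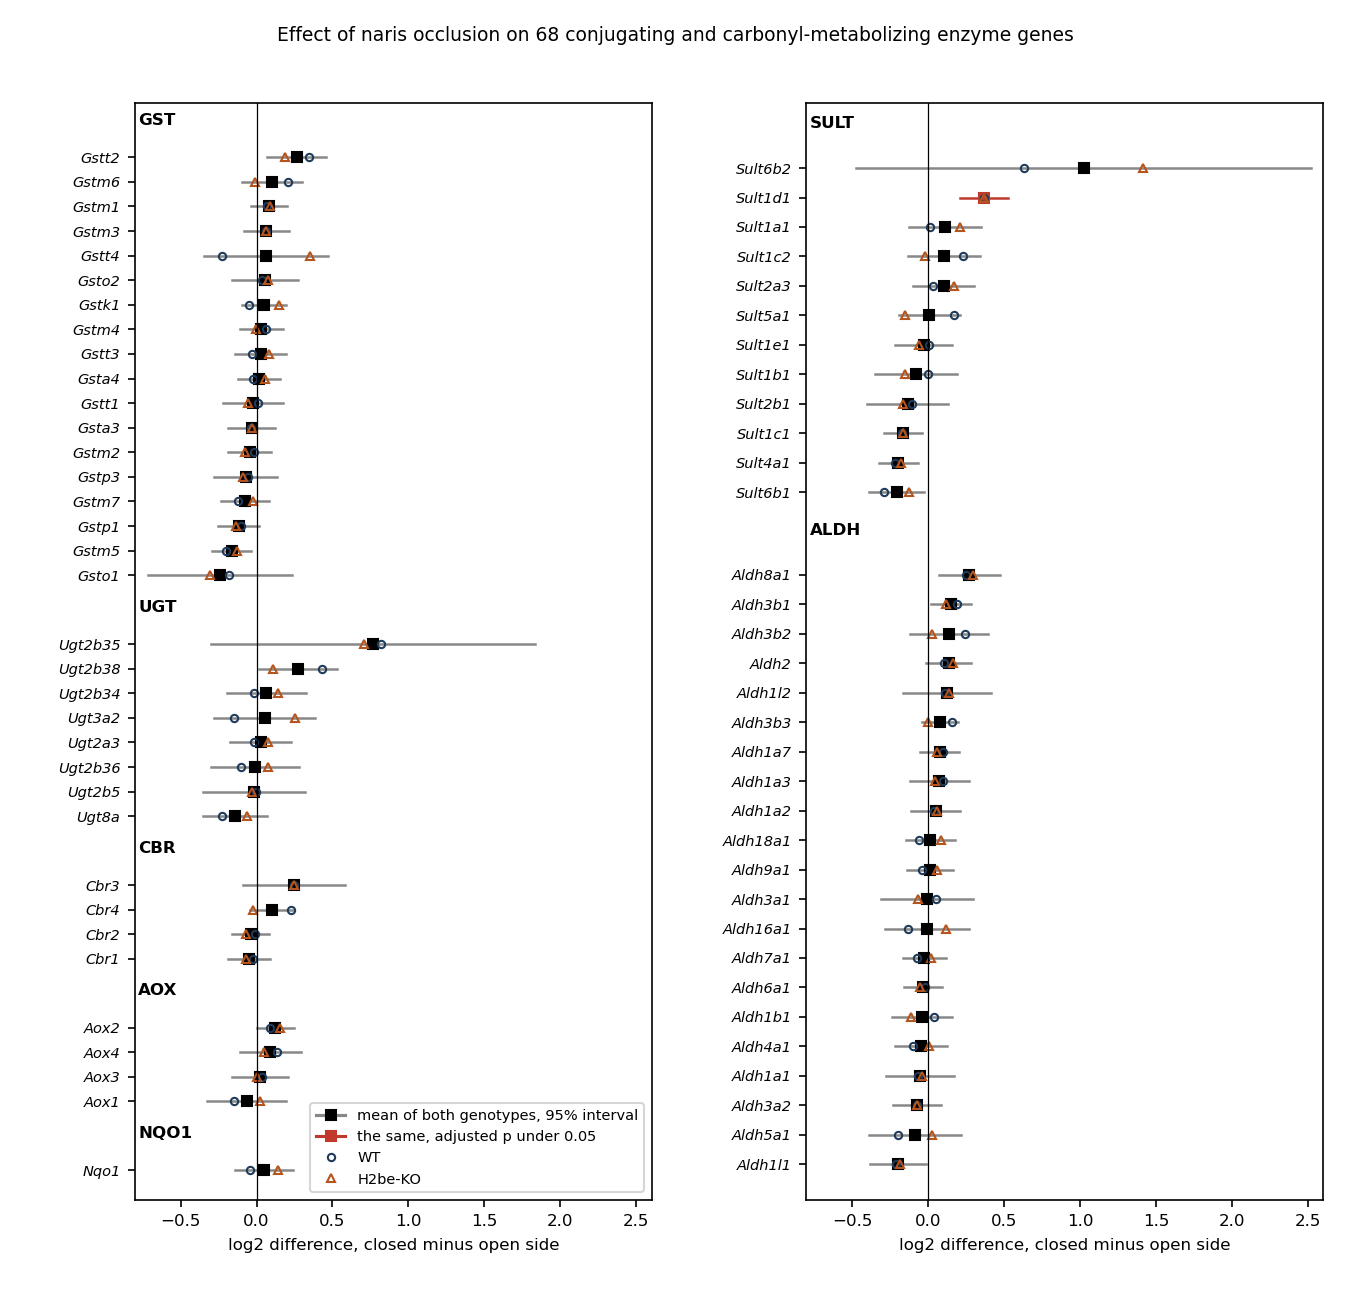
Log2 difference between the closed and the open side (horizontal axis) of each of the 68 members tested, by enzyme family. Squares with lines are the mean of both genotypes with its 95% interval from limma, circles the WT and triangles the KO; Sult1d1, in red, is the member called, and the long lines of Sult6b2 and Ugt2b35 go with single low arrays.

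Sult1d1, a sulfotransferase known for acting on catecholamines (probe set 10531100), rose on the closed side. WT open samples had log2 levels of 10.70, 10.89 and 10.59, and WT closed samples 10.98, 11.11 and 11.20. KO open samples had 10.70, 10.81 and 10.67, and KO closed samples 10.99, 11.20 and 11.09. Each of the 6 closed-side arrays lay above each of the 6 open-side arrays. Over all probe sets tested, 2.12% had all 6 closed-side arrays higher and 1.59% had all 6 lower, and among the 68 members Sult1d1 did so upward and Sult1c1 and Sult4a1 downward. The difference was 0.37, or 1.29-fold (standard error 0.07, 95% interval 0.21 to 0.53, limma adjusted p = 0.0195). The size was 0.37 in the WT (adjusted p = 0.180) and 0.37 in the KO (adjusted p = 0.178), and neither passed alone. The genotypes differed by 0.00 in this effect (95% interval -0.33 to 0.32). The call ended without array 1 or 3 of WT open, 1 or 3 of KO open, or 2 or 3 of KO closed (adjusted p up to 0.0593), while the difference stayed between 0.33 and 0.41. Both sides came from the same occluded mice, but the labels do not say whether arrays of 1 number share animals. With the replicate number as a block the call ended too (limma, adjusted p = 0.0595).

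The neighbours of Sult1d1 in the chromosome 5 cluster did not pass. Sult1e1, the estrogen sulfotransferase, had a log2 difference of -0.03 (95% interval -0.22 to 0.16) and Sult1b1, which acts on thyroid hormones, one of -0.08 (95% interval -0.35 to 0.19). Among the UGTs next to them, Ugt2a3 had 0.03 and Ugt2b38 had 0.27 (adjusted p = 0.341). The 8 UGTs of the cluster include Ugt2b1 and Ugt2b37, which were not tested.

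Some cell type markers differed between the sides on the same arrays as Sult1d1. Of 7 mature OSN markers, 6 were called higher on the closed side, by 0.23 to 0.40 (Cnga2, Adcy3, Gnal, Cnga4, Stoml3 and Ano2). Omp had a difference of 0.03. Over all probe sets tested, 2.90% were called in this comparison. The call of Stoml3 ended without any 1 array, that of Cnga2 without 9 of the 12 and that of Gnal without 8. All 5 immature OSN markers (Gap43, Gng8, Stmn2, Tubb3 and Dpysl3) fell by 0.26 to 0.42. Their calls also ended without any 1 of 9 (Gap43) or 10 (Stmn2, Tubb3) arrays, and for Dpysl3 without WT open 1 or KO closed 2, while Gng8 stayed called. With the replicate number as a block the calls of Cnga2, Gnal, Stoml3, Gap43, Stmn2, Tubb3 and Dpysl3 ended. The log2 of the summed level of the mature list ran from 14.47 to 14.56 on the open and from 14.69 to 14.76 on the closed side, and that of the immature list from 12.88 to 13.01 and from 12.62 to 12.69. Of 7 sustentacular markers tested 0 passed, with sums of 14.45 to 14.57 on the open and 14.42 to 14.48 on the closed side. Their differences all lay below zero, from -0.19 to -0.02, with a median of -0.04. At an unadjusted p under 0.05 (limma) there were 2 of the 7, beside 13.2% of all probe sets. These 7 include the members Cbr2 and Sult1c1. Of 6 Bowman gland markers tested 0 passed, with a median difference of 0.01. Of 6 markers of respiratory ciliated cells 0 passed, with a median of 0.19. The differences of these 6 ran from -0.10 to 0.22. Foxj1 was at 8.97 to 9.28 on the open and at 9.29 to 9.42 on the closed side. Ccdc39 went the other way, at 9.44 to 9.69 on the open and at 9.41 to 9.52 on the closed side. All markers of these lists lay above the filter. Of 3 globose basal markers tested, Neurod1 fell by 0.27 (limma, adjusted p = 0.0429), a call that ended with the block and without any 1 array but KO open 3. Neurog1 had a difference of -0.11 and Lgr5 one of 0.27 (adjusted p = 0.291), and the sums of these 3 ran from 9.47 to 9.68 on the open and from 9.37 to 9.52 on the closed side. The part of cell composition in the difference of Sult1d1 was not tested.

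Among the other SULTs, 11 of 12 tested did not pass. Sult1c1, a phenol sulfotransferase of the nose, differed in the other direction without passing the test. It stood at log2 levels of 11.68, 11.64 and 11.72 in WT open, 11.40, 11.52 and 11.62 in WT closed, 11.76, 11.78 and 11.72 in KO open and 11.59, 11.62 and 11.56 in KO closed. Each closed-side array lay below each open-side array, by 0.17 on average (95% interval -0.29 to -0.04, limma adjusted p = 0.198). Sult4a1, a sulfotransferase of neurons, was at 10.25, 10.09 and 10.24 in WT open, 10.00, 9.92 and 10.03 in WT closed, 10.18, 10.28 and 10.13 in KO open and 10.01, 10.04 and 10.01 in KO closed. Here too the 2 sides did not overlap, with a difference of -0.20 (95% interval -0.32 to -0.07, adjusted p = 0.123). With variances fitted to the mean level and robust to outliers, and also without pooling of variances across probe sets, Sult1c1 and Sult4a1 were called lower as well, and Sult1d1 stayed called. Sult6b1 had a difference of -0.21 (adjusted p = 0.297), and in the WT its open samples, 8.11, 7.90 and 8.04, lay above its closed samples, 7.81, 7.49 and 7.89. Sult1a1, the general phenol sulfotransferase, had 0.11 (adjusted p = 0.759).

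**Figure D2:**
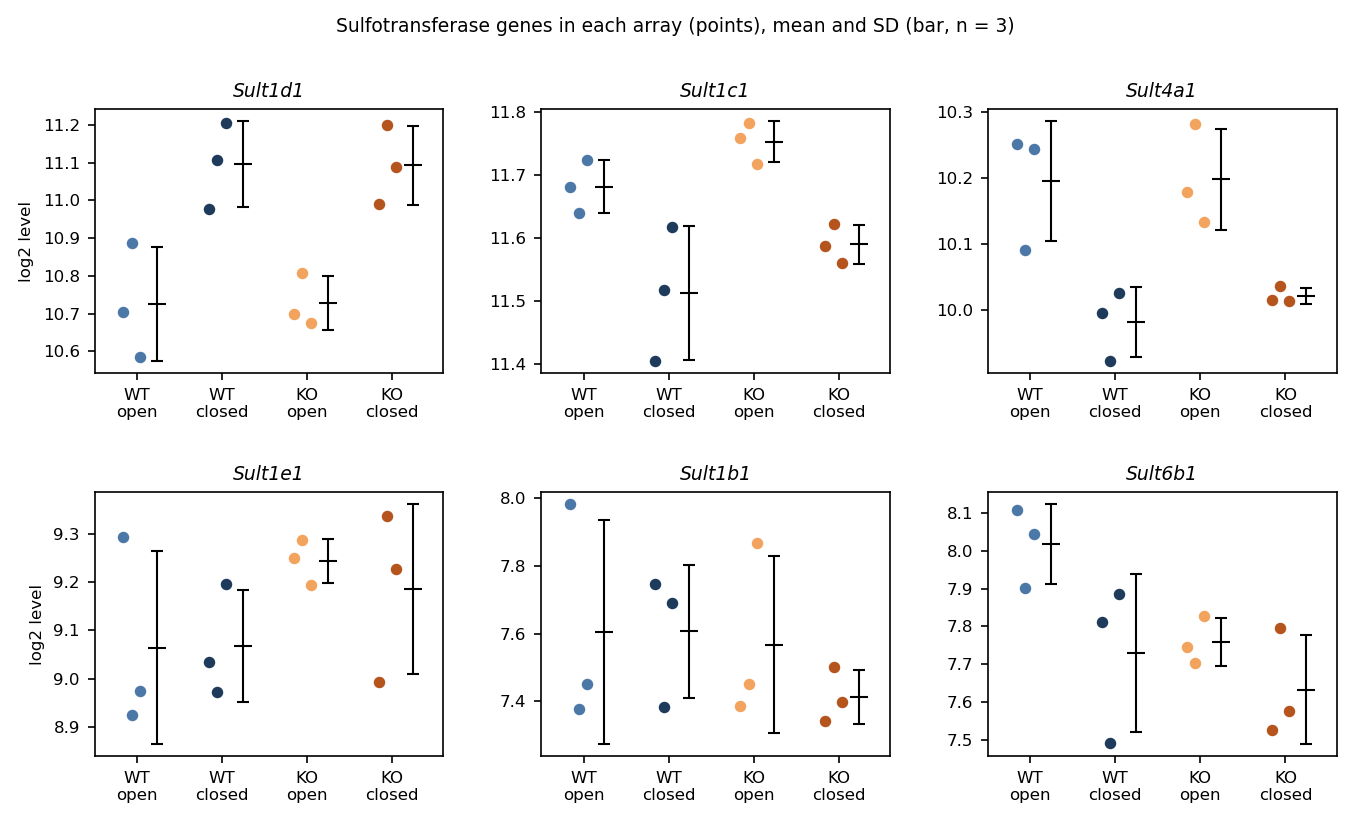
Log2 level (vertical axis) of 6 sulfotransferase genes on each array of the 4 groups; a point is 1 array, a horizontal mark the group mean, a vertical line its SD (n = 3), and the vertical scale differs between panels. For Sult1d1 all closed-side arrays lie above the open-side ones, between 10.98 and 11.20, and for Sult1c1 and Sult4a1 they lie below.

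Sult6b2 and Ugt2b35 had the largest differences and the largest spread. Sult6b2 was at 3.13, 5.55 and 5.04 in WT open and at 6.34, 5.73 and 1.71 in KO open, while all closed-side arrays lay between 4.97 and 6.17. Its difference of 1.02 (95% interval -0.47 to 2.52, limma adjusted p = 0.603) goes with the low values of WT open 1 and KO open 3. Ugt2b35 was also lowest on these arrays, 4.25 in WT open 1 and 5.76 in KO open 3, against 7.07 to 7.63 on the other 10. Its difference was 0.76 (95% interval -0.30 to 1.83, adjusted p = 0.580).

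No GST of the 18 tested was called on either side. The highest difference was that of Gstt2, a theta-class enzyme, with 0.27 (95% interval 0.07 to 0.46, limma adjusted p = 0.181). It was at 6.74, 7.12 and 6.72 in WT open, 7.26, 7.25 and 7.10 in WT closed, 7.06, 6.90 and 7.13 in KO open and 7.33, 7.26 and 7.05 in KO closed, so the sides overlapped in both genotypes. Among the 7 mu-class genes, Gstm5 was lower on the closed side by 0.16 (95% interval -0.29 to -0.04, adjusted p = 0.215). Its levels were 10.13, 10.18 and 10.28 in WT open, 10.06, 10.02 and 9.92 in WT closed, 10.14, 10.07 and 10.05 in KO open and 9.95, 9.90 and 10.02 in KO closed. Within each genotype its sides did not overlap. Gstm1, 1 of the brightest GST probe sets, varied little, with open-side levels of 11.69 to 11.81 and closed-side levels of 11.78 to 11.94. Its difference was 0.08 (95% interval -0.04 to 0.20), so a change beyond 0.20 in either direction lay outside the interval. Gstm2 had -0.04, Gsta3 -0.03 and Gstt1 -0.02. Gsta4, which detoxifies 4-hydroxynonenal, had 0.02 (95% interval -0.12 to 0.16), and Gstk1, the mitochondrial and peroxisomal form, 0.05. Gstp1, the pi-class enzyme, had -0.12 (adjusted p = 0.456), and 2 probe sets shared by Gstp1 and Gstp2 had -0.10 and -0.11 (adjusted p = 0.706 and 0.710). The 4 probe sets shared by Gsta1, Gsta2, Gm10639 and Gm3776 had differences of 0.16 to 0.17 (adjusted p = 0.328 to 0.407). Gstm3 has a pair of probe sets, with differences of 0.06 and 0.01.

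Of 8 UGTs tested 0 passed. Ugt2a1, the olfactory UGT, and Ugt2a2 share a single probe set and so are no members. It was at 12.35, 12.47 and 12.30 in WT open, 12.30, 12.36 and 12.55 in WT closed, 12.40, 12.44 and 12.44 in KO open and 12.41, 12.52 and 12.43 in KO closed. The sides overlapped, and the difference was 0.03 (95% interval -0.11 to 0.17, limma adjusted p = 0.914). The probe set shared by Ugt1a6a and 7 other UGT1 genes had 0.09 (95% interval -0.11 to 0.29). Ugt2b38 had 0.43 in the WT, where its open samples (6.17, 6.77 and 6.87) lay below its closed samples (6.92, 7.11 and 7.07), but the adjusted p was 0.408. The value of WT open 1 is its lowest, and the WT difference was 0.21 without WT open 1 and KO open 3. Ugt8a, which makes galactosylceramide of myelin, had -0.14 (adjusted p = 0.611).

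Of 21 ALDHs tested 0 passed, with differences between -0.20 and 0.27. Aldh8a1 was highest, at 5.99, 6.26 and 6.37 in WT open, 6.65, 6.39 and 6.35 in WT closed, 6.08, 6.04 and 6.17 in KO open and 6.61, 6.30 and 6.28 in KO closed. The sides overlapped in the WT and not in the KO, and the average difference was 0.27 (95% interval 0.07 to 0.47, limma adjusted p = 0.183). Aldh3b1, which oxidises medium- and long-chain aldehydes, had 0.15 (adjusted p = 0.276), and in the WT its closed samples, 9.11, 8.99 and 9.10, lay above its open samples, 8.88, 8.90 and 8.86. Aldh2, the mitochondrial enzyme that oxidises acetaldehyde, had 0.14 (95% interval -0.01 to 0.28, adjusted p = 0.430). The retinaldehyde dehydrogenases had -0.05 (Aldh1a1), 0.05 (Aldh1a2) and 0.07 (Aldh1a3), and Aldh1a7, a close relative of Aldh1a1, had 0.08. Aldh3a1, an enzyme of aromatic and lipid aldehydes, had -0.01 and Aldh3a2, the fatty aldehyde dehydrogenase, had -0.07. Aldh1l1, which takes part in folate metabolism, was the lowest with -0.20 (adjusted p = 0.341).

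CBRs, AOXs and Nqo1 gave no call either. Cbr2, a carbonyl reductase of sustentacular cells, was at 12.66 to 12.85 on the open side and 12.72 to 12.81 on the closed side. Its difference was -0.04 (95% interval -0.16 to 0.08, limma adjusted p = 0.851), and its SD within groups, 0.05, was among the smallest of the members. Cbr1, a cytosolic carbonyl reductase, had -0.05 and Cbr3 had 0.25 (95% interval -0.09 to 0.58). Cbr4, of mitochondria, had 0.23 in the WT, where 8.50, 8.32 and 8.50 on the closed side lay above 8.15, 8.24 and 8.25 on the open side (adjusted p = 0.449), and -0.03 in the KO. Aox2, an aldehyde oxidase of Bowman glands, was at 11.37, 11.24 and 11.33 in WT open, 11.46, 11.38 and 11.36 in WT closed, 11.21, 11.24 and 11.30 in KO open and 11.47, 11.38 and 11.37 in KO closed. All 3 closed-side arrays of the KO lay above the open-side ones, and the average difference was 0.12 (95% interval 0.00 to 0.24, adjusted p = 0.380). Aox1, Aox3 and Aox4 had -0.06, 0.02 and 0.09. Nqo1, which marks OSNs of the dorsal zone, was at 10.34, 10.33 and 10.50 in WT open, 10.15, 10.38 and 10.50 in WT closed, 10.22, 10.47 and 10.11 in KO open and 10.44, 10.51 and 10.27 in KO closed. The sides overlapped, with a difference of 0.05 (95% interval -0.14 to 0.24, adjusted p = 0.890). Acsm4, another gene of the dorsal zone, had -0.05 (adjusted p = 0.848).

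**Figure D3:**
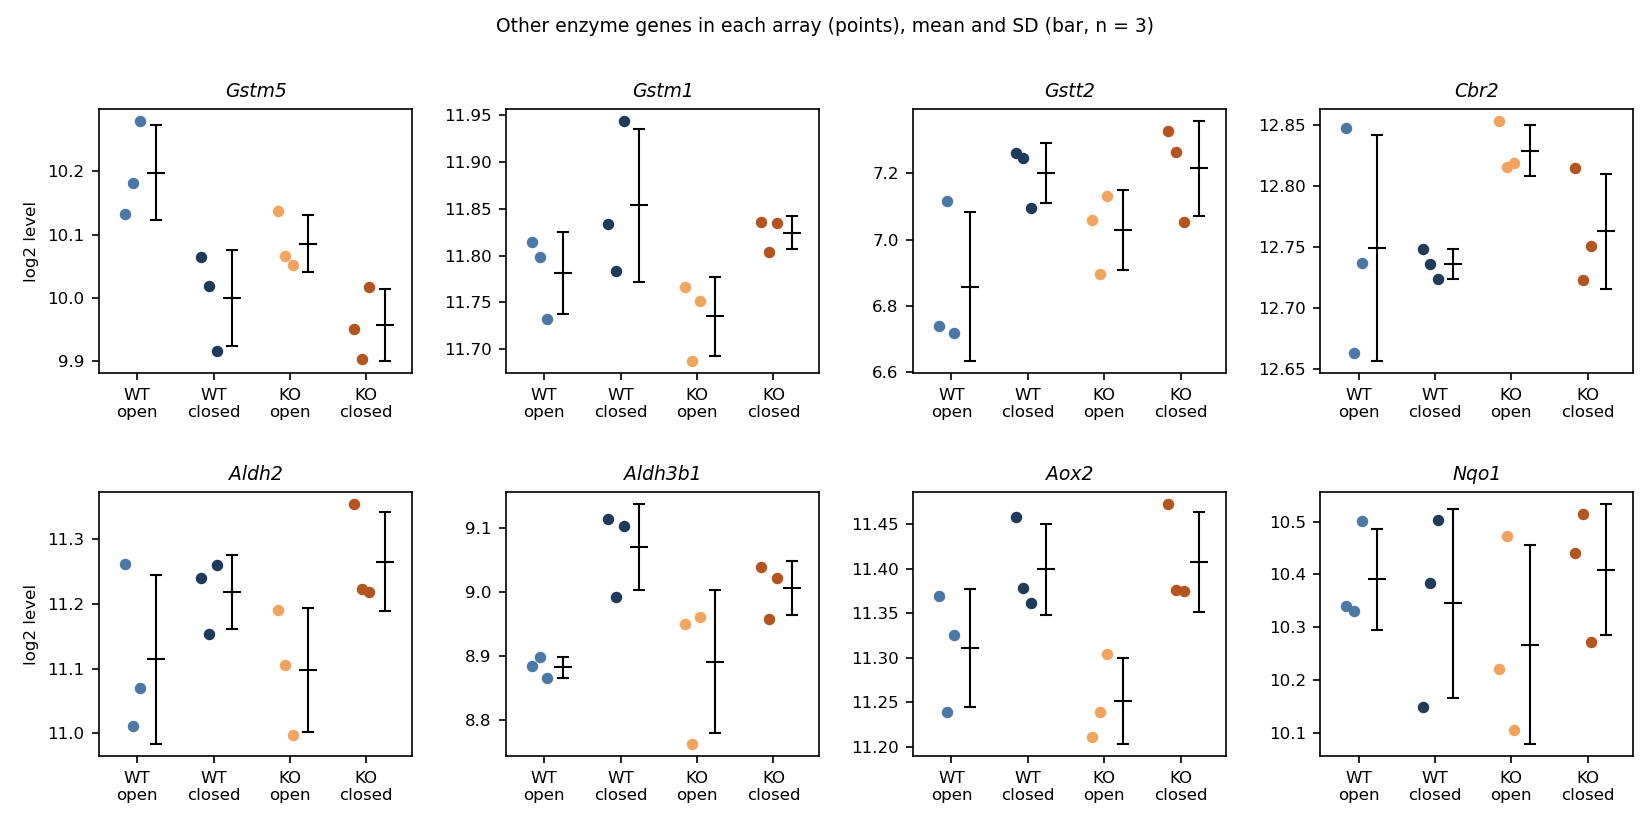
Log2 level (vertical axis) of 8 genes, Nqo1 and 7 GST, CBR, ALDH and AOX genes, on each array of the 4 groups; a point is 1 array, a horizontal mark the group mean, a vertical line its SD (n = 3), and the vertical scale differs between panels. Gstm5 lies lower on the closed side within each genotype, Cbr2 stays between 12.66 and 12.85, and the sides of Nqo1 overlap.

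No difference between KO and WT passed the test in any member. The targeted gene H2be, which is no member, was not called on either side, although its KO arrays all lay below its WT arrays. On the open side 0 of 68 members were called and 4 had an unadjusted p under 0.05, beside 0.0215% and 6.67% of all probe sets. On the closed side 0 were called and 3 had an unadjusted p under 0.05, beside 0.0245% and 4.26%. Without overlap, 4 members were higher and 5 lower in the KO on the open side, beside 1310 and 2737 of the 32615 probe sets. For the closed side these were 4 and 5 members, beside 1381 and 1497 probe sets. The lowest p on the open side was that of Aldh7a1, which breaks down lysine, with 9.31, 9.27 and 9.13 in the KO against 9.52, 9.39 and 9.56 in the WT (log2 difference -0.25, limma adjusted p = 0.694). It was lower in the KO on the closed side too, without overlap, by a difference of -0.16 (adjusted p = 0.999). Aldh6a1, of valine breakdown, showed the same order, with KO levels of 10.28 to 10.39 on both sides against WT levels of 10.37 to 10.53, and differences of -0.12 on the open side (adjusted p = 0.856) and -0.15 on the closed side (adjusted p = 0.999). Aox1 was at 6.29, 6.58 and 6.69 in KO open against 7.11, 6.79 and 6.92 in WT open (difference -0.42, adjusted p = 0.715). On the closed side Sult5a1 was at 5.42, 5.61 and 5.91 in the KO against 6.19, 6.04 and 6.04 in the WT, a difference of -0.44 (95% interval -0.73 to -0.16, adjusted p = 0.999). Gstk1 was at 8.40, 8.43 and 8.50 in the KO against 8.16, 8.01 and 8.24 in the WT, a difference of 0.30 (95% interval 0.10 to 0.51, adjusted p = 0.999). Gstt4 differed by 0.58 there, with 4.74 in WT closed 1 against 5.73 to 6.07 on the other 5 closed-side arrays.

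No member passed the test of a different UNO effect between the genotypes. For this genotype-by-side difference 0 of 68 members were called by limma and 0 had an unadjusted p under 0.05, beside 0% and 4.01% of all probe sets. Cbr4 had the lowest p, with a difference of -0.25 (95% interval -0.54 to 0.03, limma adjusted p = 1.00). The standard error of a genotype-by-side difference had a median of 0.189 over all probe sets (95% half-width 0.414).

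Genes around the enzymes were described in 5 lists. Of 12 genes that supply glutathione, UDP-glucuronic acid and active sulfate, 0 passed, with Gclm, the glutathione synthesis subunit, lowest at -0.16 (limma adjusted p = 0.355) and a median of -0.04. Of 24 other xenobiotic enzymes 0 passed, with a median of -0.01. Of 9 conjugate exporters of the ABC family 0 passed, with a median of 0.03 and Abcc1 highest at 0.15.

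Of 8 regulators and targets of Nrf2, the factor that induces many phase II genes, 2 were called higher on the closed side and 0 lower. Over all probe sets tested, 2.90% were called. The differences of the 8 went both ways, with a median of -0.04. Hmox1, the inducible heme oxygenase, was at 7.58, 7.51 and 7.26 in WT open, 8.21, 7.96 and 8.03 in WT closed, 7.74, 7.76 and 7.56 in KO open and 8.16, 8.07 and 8.11 in KO closed. All closed-side arrays lay above all open-side arrays, by 0.52 or 1.44-fold (standard error 0.08, limma adjusted p = 0.00272). It was called whichever 1 array was left out. Me1, malic enzyme, which makes NADPH, rose by 0.34 (adjusted p = 0.0257), a call that was kept only without WT open 1 or WT closed 2 and ended without any other 1 of the 12 (adjusted p up to 0.0718). The other 6 had differences of -0.36 (Slc7a11, the cystine carrier, adjusted p = 0.0750), -0.19 (Srxn1), -0.17 (Osgin1), -0.05 (Keap1), -0.04 (Txnrd1) and 0.07 (Nfe2l2, which encodes Nrf2).

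Of 9 retinoid handling genes tested, 1 was called, lower on the closed side, where 2.90% of all probe sets tested were called. Crabp1, a retinoic acid binding protein, was at 10.55, 10.42 and 10.66 in WT open, 10.23, 10.15 and 10.28 in WT closed, 10.55, 10.54 and 10.56 in KO open and 10.03, 10.19 and 10.19 in KO closed. The closed-side arrays all lay below the open-side arrays, by a difference of -0.37 (standard error 0.06, limma adjusted p = 0.00722), and it was called whichever 1 array was left out. Dhrs3, a retinaldehyde reductase, had -0.22 (adjusted p = 0.0747), also without overlap. The immature OSN markers above fell on the same arrays. Their part in these differences was not tested.

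**Figure D4:**
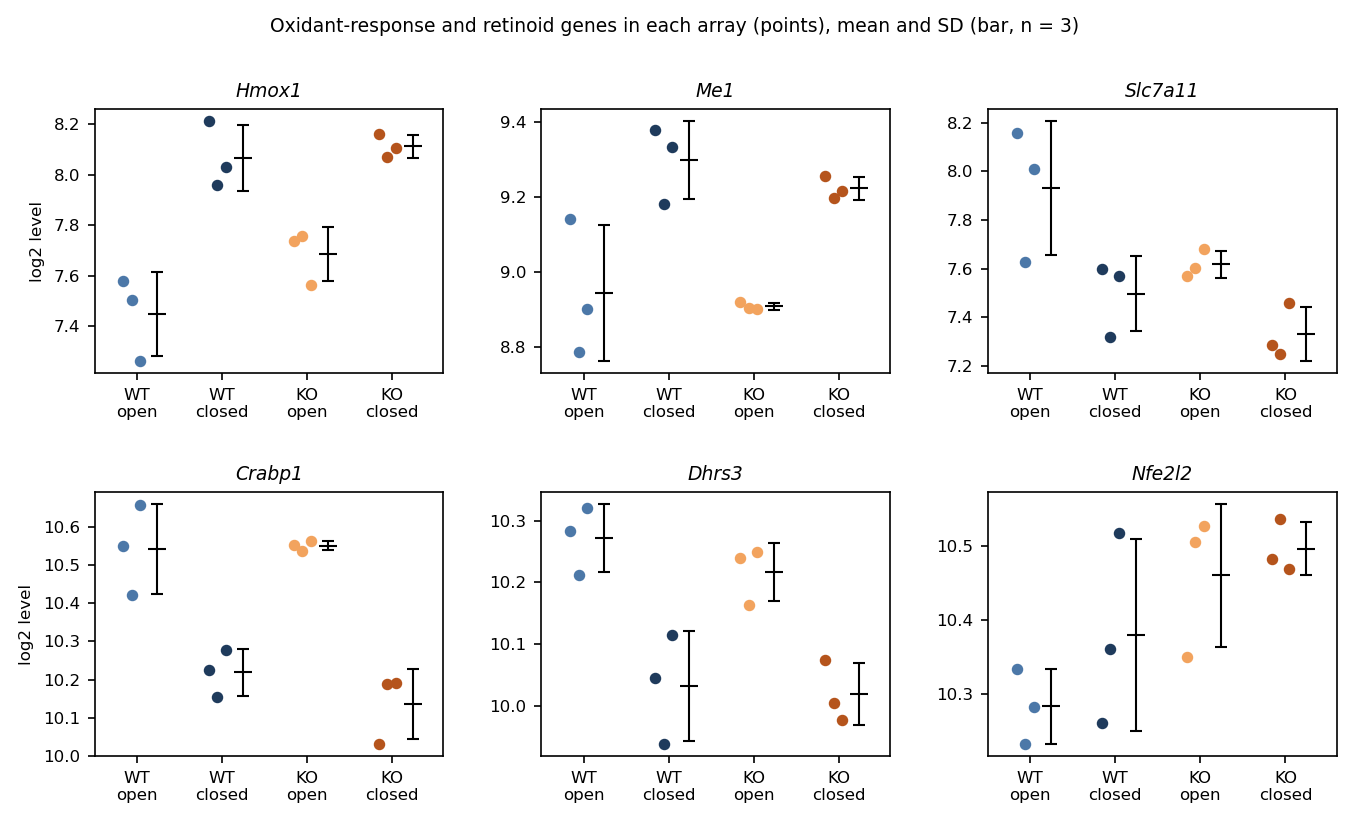
Log2 level (vertical axis) of 6 genes of the Nrf2 and retinoid lists on each array of the 4 groups; a point is 1 array, a horizontal mark the group mean, a vertical line its SD (n = 3), and the vertical scale differs between panels. Hmox1 and Me1 are higher and Crabp1 and Dhrs3 lower on all closed-side arrays than on all open-side arrays, while Nfe2l2 overlaps.

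Some members varied more between arrays of 1 group than between sides. Gsto1, a thiol transferase that reduces dehydroascorbate, was at 10.70, 9.38 and 10.11 in WT open, 10.41, 9.71 and 9.52 in WT closed, 10.31, 9.72 and 10.28 in KO open and 9.76, 9.77 and 9.86 in KO closed. Its SD within groups was 0.44, against a median of 0.153 for the members and 0.168 for all probe sets tested. Aldh3a1 was also lowest in WT open 2 (8.55) and next in KO open 2 (8.69), against 9.34 at most in WT closed 1. Aldh1a1 was at 11.37 and 11.35 on these arrays and at 11.84 in WT open 1. Muc5ac, the mucin of goblet cells of respiratory epithelium, was at 9.61, 5.23 and 8.32 in WT open, 8.61, 6.54 and 4.54 in WT closed, 8.11, 5.64 and 8.35 in KO open and 7.90, 4.97 and 7.17 in KO closed. In WT open, WT closed and KO open the same array was lowest for Gsto1 and for Muc5ac. In KO closed it was not the same array. There Muc5ac was lowest in array 2 (4.97), where Gsto1 was at 9.77, and Gsto1 ran only from 9.76 to 9.86. The summed secretory list ran from 12.02 to 12.57 on the open and from 12.03 to 12.42 on the closed side. The part of respiratory tissue in the spread of Gsto1 was not tested, and its side difference of -0.24 had a 95% interval of -0.72 to 0.23.

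**Figure D5:**
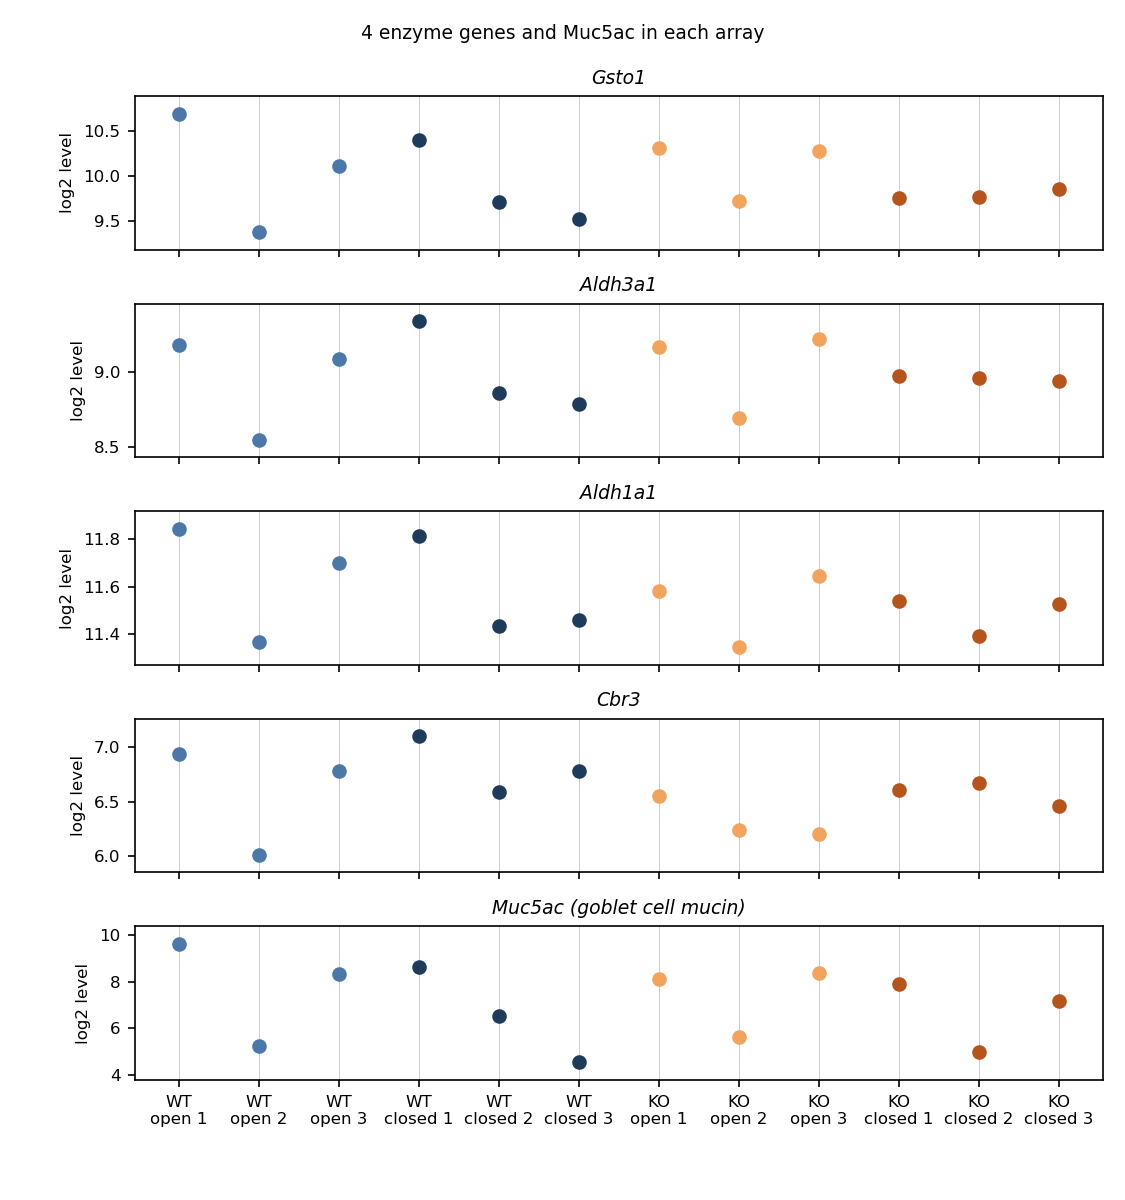
Log2 level (vertical axis) of Gsto1, Aldh3a1, Aldh1a1, Cbr3 and Muc5ac in each of the 12 arrays (horizontal axis); each point is 1 array, coloured by group, and the vertical scale differs between panels. WT open 2 is low in all 5 panels, and Muc5ac runs from 4.54 to 9.61.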

How the data were processed

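RNA of each MOE side was hybridised to Affymetrix Mouse Gene ST arrays. The authors checked the arrays with arrayQualityMetrics and normalized them by sketch-quantile with IterPLIER summaries in the Affymetrix Expression Console. The deposited values are on the log2 scale, 1 for each array and probe set, and 0 are missing. The genome build is not given in the sources used here. No column was left out. Symbols came from the platform annotation, and all 75 matched RefSeq. The members, gene lists and alternatives were chosen with earlier results of these data known. In R 4.3.3, limma 3.58.1 was fitted with 1 mean per group to the 32615 of 35556 probe sets with a mean log2 above 5 (lmFit, eBayes), for 6 contrasts, two-sided, with Benjamini-Hochberg adjustment over these probe sets and a threshold of 0.05. The fit was also run on simulated data with independent normal noise for each probe set. Those data held no shared mice and no single low arrays, so the run is no check on these. About 11.5 degrees of freedom stood behind each test, and the number of arrays limits the precision. Samples of 1 genotype with the same number on both sides were not paired in the main fit. Their deviations from the group means correlated with r over 0.1 in 2 of 6 cases (-0.01 to 0.23). Between samples of different numbers r was -0.19 to 0.13. These values do not settle whether samples of 1 number share mice, so a fit with a replicate block was run too. Members were named if called, if among the 6 lowest p of a contrast, or from a list of well-known family members, and genes of the other lists if called or if a result turned on them. Each result was recomputed with other filters, fits, normalizations and probe set choices, with a replicate block and without each array. Without both WT open 1 and KO open 3 was chosen after seeing the data. Python 3.11.15 with matplotlib 3.10.9 drew the figures.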

Additional observations from a re-analysis of the deposited data

How the results depend on the processing

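The count of members called did not move for KO against WT on either side or for genotype by side, where it was 0 under every alternative run. For the average of both genotypes it was 1 (Sult1d1) and became 3 with trend and robust fitting and 3 without eBayes moderation, where Sult1c1 and Sult4a1 were called lower. It was 0 with the replicate block and 0 without both WT open 1 and KO open 3. With 1 array left out the count was 0 to 1. With trend and robust fitting it was 1 in the WT and 1 in the KO, Sult1d1 each time, in place of 0. With the replicate block the difference of Sult1d1 was 0.37 (limma, adjusted p = 0.0595), above the threshold of 0.05, so its call, which was the only one among the members, ended. The sign of Aldh3b3 in KO against WT turned when its probe sets were averaged, to -0.23 on the open side and 0.40 for genotype by side. The probe sets averaged there include 1 with a mean log2 level of 4.23, under the filter. Of 843 values of named members under the alternatives, 827 kept their sign and their side of the threshold, 8 lost a call, all of Sult1d1, and 6 gained one. No named member but Sult1d1 had a call to lose, and the fits without 1 array overlap each other. The 827 are therefore no measure of how firm the call of Sult1d1 is. The cause of the other moves was not tested. The files hold no background or detection values, so the 7 members at or under the filter have no measured limit of detection.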
